A study of Mus musculus with 8 samples.

Results

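Bone marrow LSK cells (Lineage- Sca-1+ c-Kit+), in which haematopoietic stem cells lie among multipotent progenitors, were compared between 2 pairs of control libraries that had received the same treatment. The 4 libraries came from mice injected with phosphate-buffered saline (PBS), among 8 RNA-seq libraries in all. PBS replicates 1 and 2 (letters H and I) carry a bone marrow tag in their file and column names, and PBS replicates 3 and 4 (letters J and K) do not. The pairs were formed by that tag, and no measured value was used to form them. Mice were C57BL/6 males of 12 to 13 weeks. They were fasted overnight for more than 14 hours, injected intravenously with PBS for 7 days and fed freely in the daytime. Marrow was taken from femurs and tibias on day 8, and RNA came from about 10000 sorted cells. The other 4 libraries came from mice given glucose (2 g/kg; letters A and B, no tag) or the same glucose with a 20% lipid emulsion (6 ml/kg; letters H and I, tag), on the same schedule. Here they serve to estimate the spread and as a reference range. The labels do not say what the tag stands for, or whether a library is 1 mouse or a pool. P-values therefore measure only the spread between these libraries.

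LSK cells contain few quiescent stem cells and many cycling progenitors. Stem cells at rest are known for low rates of protein synthesis and small use of mitochondrial respiration. Progenitors that enter the cell cycle raise ribosome production, chaperones, respiration and replication enzymes. Chaperones such as Hsp70 and Hsp90 are under the transcription factor HSF1, which binds heat shock elements in promoters when unfolded protein accumulates. Immediate early genes respond within minutes to growth factors and also to the handling of cells. MicroRNAs are short RNAs that repress messenger RNAs through pairing of a seed at bases 2 to 8.

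Of the genes called between the pairs, 2 were microRNA genes above 0 in 1 pair only, and their mature sequences are shown for that reason, 5′ to 3′ from RefSeq (GRCm38.p6), with the seed in capitals. The 4 seeds all differ. The hairpin of Mir3112 lies at chrX:134075316-134075397 on the plus strand inside Cstf2, and that of Mir3061 at chr11:52126746-52126836 on the plus strand with no host gene.
mmu-miR-3112-5p: aCAUAGAAaaggcagucugca
mmu-miR-3112-3p: cAGUUUGUcucuucuuugucu
mmu-miR-3061-5p: cAGUGGGCcgugaaagguagcc
mmu-miR-3061-3p: cUACCUUUgauaguccacugcc

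All 4 PBS libraries held the transcripts of the sorting gate. Kit ran from 166 to 192 FPKM (fragments per length of transcript and per number of mapped fragments), Ly6a, which encodes Sca-1, from 295 to 345, and Cd34 from 498 to 533. Markers of other cell types were not uniformly absent. Pax5 and Gp6 were listed at 0 in all 4 and Cd3e and Cdh5 stayed under 1 FPKM, while Cd79b of the B cell markers ran from 33.2 to 49.6 FPKM and Pf4 of the platelet markers from 46.6 to 92.7. Of 23284 gene symbols, 11931 had at least 1 FPKM in at least 2 of the 8 libraries and were tested, and 11186 to 11410 genes reached 1 FPKM in each PBS library. Fragment counts are not given, but the value of 1 fragment puts the depth of PBS I, J and K at 0.988, 0.938 and 0.950 of that of PBS H. The first library of glucose with lipid had a summed neutrophil marker level of 67211 FPKM, against 317 to 608 in the PBS libraries. It enters the estimate of spread, the ranges of the treated libraries and the counts against the other 6 libraries.

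The 4 libraries were first compared as wholes on log2(FPKM + 1). Across the 11931 genes, the Pearson correlation was 0.967 for H with I and 0.963 for J with K, and it lay between 0.953 and 0.964 for the 4 combinations across the pairs. The median absolute difference per gene was 0.16 within H and I, 0.21 within J and K, and 0.22 to 0.27 across the pairs. A difference above 1 on the log2 scale was found for 180 genes (1.51%) between H and I and for 301 (2.52%) between J and K. Across the pairs it was found for 330 to 543 genes (2.77% to 4.55%). Libraries with the same tag were thus more alike than libraries with different tags by the median difference, while PBS K with PBS H (0.964) was as close as J with K by the correlation. PBS J stood farthest from the tagged pair, with correlations of 0.955 and 0.953 to H and I.

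A linear model in limma called 6 of 11931 genes (0.0503%) at an adjusted p under 0.05. Of these, 5 were higher (0.0419%) and 1 lower (0.00838%) in PBS H and I than in PBS J and K. An unadjusted p under 0.05 was reached by 2058 genes (17.2%), 898 of them higher (7.53%) and 1160 lower (9.72%) in H and I. Of these genes 43.6% were thus higher, a share that depended on scaling: it was 31.4% with median centring and 77.3% with small RNA genes removed and libraries rescaled, which shifted the median of all genes by 0.10. Both libraries of H and I lay above both of J and K in 24.4% of genes and below both in 25.3%. The genes that passed were a clustered histone gene, 2 globin genes, a sphingosine 1-phosphate transporter and the 2 microRNA genes.

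Hist1h2bc, a histone H2B gene of the cluster on chromosome 13 (H2bc4 in RefSeq, chr13:23684199-23692480), was listed at 153 and 140.1 FPKM in libraries H and I and at 22.6 and 31.0 in J and K. The groups did not overlap, and the treated libraries (77.5 to 107 FPKM) lay between them. The difference was 2.43 ± 0.19 on the log2 scale (SE, n = 2 and 2, limma, adjusted p = 0.00679). Without PBS H or without PBS I the adjusted p was 0.0789 or 0.0823, and it was 0.056 with no filter on level. Reads of near-identical histone copies can be divided between them by the counting, so the level of this 1 copy is uncertain.

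The globin genes Beta-s (Hbb-bs in RefSeq, chr7:103826523-103827928) and Hba-a1 (chr11:32283672-32284486) encode chains of adult haemoglobin. Beta-s stood at 201 and 166 FPKM in libraries H and I and at 24.4 and 19.4 in J and K (log2 difference 3.01 ± 0.28, limma, adjusted p = 0.0173). Hba-a1 stood at 164 and 134 FPKM against 21.3 and 20.5 (2.77 ± 0.26, adjusted p = 0.0173). These genes also have close copies, so sums are firmer than single values. The sum of Hba-a1 and Hba-a2 was 213 and 218 FPKM in H and I against 28.7 and 28.4 in J and K. The sum of the 3 beta globin genes was 586 and 557 FPKM against 540.4 and 264, so PBS J was close to the tagged pair there.

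Spns2 (chr11:72451638-72489976), which exports sphingosine 1-phosphate from cells, stood at 74.2 and 68.6 FPKM in libraries H and I and at 19.9 and 24.1 in J and K. The treated libraries ranged from 23.2 to 37.4 FPKM, so H and I stood above all other 6 libraries. The difference was 1.66 ± 0.16 (limma, adjusted p = 0.0192). Spns2, Beta-s and Hba-a1 passed in none of the fits that left out 1 PBS library, where the adjusted p lay between 0.0642 and 0.209, nor with no filter on level or without the mean-variance trend.

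Mir3112 had 1619 FPKM in PBS H, 1641 in PBS I and 0 elsewhere in the series. Mir3061 had 469 FPKM in PBS J, 465 in PBS K and 0 elsewhere. Both are among the 6 genes called in limma, but each passed the filter on level only through the pair where it is above 0 and so had to differ. Their values are therefore a description, with no fold against a group at 0. The ratio of I to H was 1.013 for Mir3112, and it was the same within 0.01% for 5 of the other 31 small RNA genes above 0 in both libraries. The ratio of J to K was 1.008 for Mir3061, and it was the same for 6 of 36. Equal numbers of fragments in both libraries of a pair would give such equal ratios, and that number is not given. Of the 32 microRNA genes tested, 25 were listed at 0 in at least 1 PBS library. Cstf2, the messenger RNA gene around Mir3112, had 49.996 and 38.1 FPKM in H and I and 48.3 and 39.2 in J and K, a difference of 0.00.

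**Figure D1:**
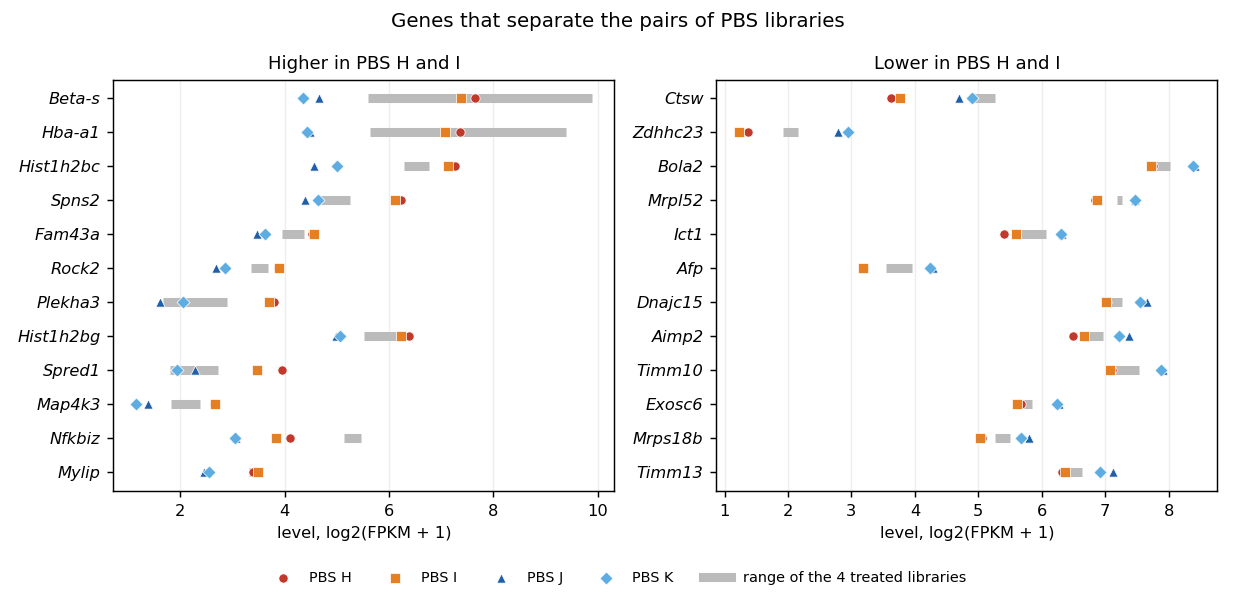
Level of the 24 messenger RNA genes that most clearly separated the pairs, in log2(FPKM + 1), with 1 marker per PBS library and a grey bar for the range of the 4 treated libraries. Beta-s, Hba-a1, Hist1h2bc and Spns2 passed in limma and the other 20 did not (adjusted p from 0.0721 to 0.0985). In Rock2, Mrpl52 and Afp the treated libraries lie between the pairs, while in Nfkbiz they lie above all 4 PBS libraries.

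The next genes by p did not pass. Higher in PBS H and I stood Fam43a at 22.1 and 22.8 FPKM against 10.1 and 11.3 (log2 difference 1.003 ± 0.13, limma, adjusted p = 0.0721). Rock2, a kinase of the actin cytoskeleton under RhoA, stood at 13.6 and 13.8 FPKM against 5.42 and 6.25, and Plekha3, a Golgi lipid transfer adaptor, at 13.0 and 12.1 against 2.04 and 3.15 (adjusted p = 0.0792 for both). Spred1, an inhibitor of Ras signalling, stood at 14.4 and 10.04 FPKM against 3.89 and 2.84, and Nfkbiz, an atypical IkB protein, at 16.2 and 13.2 against 7.37 and 7.24. In each of these 5 genes both libraries of H and I lay above both of J and K.

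Of the 12 genes taken by the same rule in the lower direction, none of which passed, several encode mitochondrial proteins. The share of such genes among all tested genes was not counted, so this is a description of these names only. Mrpl52 and Mrps18b are proteins of the mitochondrial ribosome, Ict1 (Mrpl58 in RefSeq) releases chains from it, and Timm10 and Timm13 are chaperones of mitochondrial protein import. Mrpl52 stood at 114 and 115 FPKM in libraries H and I and at 175.7 in both J and K (log2 difference -0.61 ± 0.08, adjusted p = 0.0792). Timm10 stood at 137 and 133 FPKM against 239.6 and 233 (-0.80 ± 0.13, adjusted p = 0.0985). Ict1 stood at 41.2 and 47.5 FPKM against 78.7 and 78.1. Outside mitochondria, Ctsw, which encodes a protease of cytotoxic lymphocytes, stood at 11.3 and 12.6 FPKM against 24.8 and 28.9 (-1.099 ± 0.14, adjusted p = 0.0721). The treated libraries (27.8 to 37.2 FPKM) were on the side of J and K for Ctsw, and between the pairs for Mrpl52 (144 to 152).

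Programmes were then described by lists of genes, each by its counts and the median log2 difference (H and I minus J and K) of its tested members. Over all 11931 tested genes the median was 0.00, with 50.1% above 0 and 49.9% below. Of all tested genes, 24.4% lay above both J and K and 25.3% below both. J and K stood above all other 6 libraries in 12% and below them in 7.89%. H and I stood above all other 6 libraries in 5.87% and below them in 5.93%. Each count of list members is to be read beside these shares. Of 56 lists with at least 5 tested members, 24 had a median above 0 and 32 below, and 28 had a median more than 0.2 from 0. Respiratory complexes enter these counts both singly and as 1 joint list, so the same genes count more than once. With the complexes taken as 1 list, 25 had a median more than 0.2 from 0. With quantile normalisation the medians were at least 1.5 times nearer to 0 for several lists described next: -0.22 for heat shock, -0.27 for the unfolded protein and integrated stress responses, -0.12 for the proteasome, -0.15 for the cytosolic ribosome, -0.14 for S phase, -0.13 for glycolysis and 0.16 for NF-kB. Besides the genes named above, no member of any list passed. In bulk RNA, a cell type that is rarer and one whose cells hold less of a transcript cannot be told apart, which applies to all lists that follow.

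**Figure D2:**
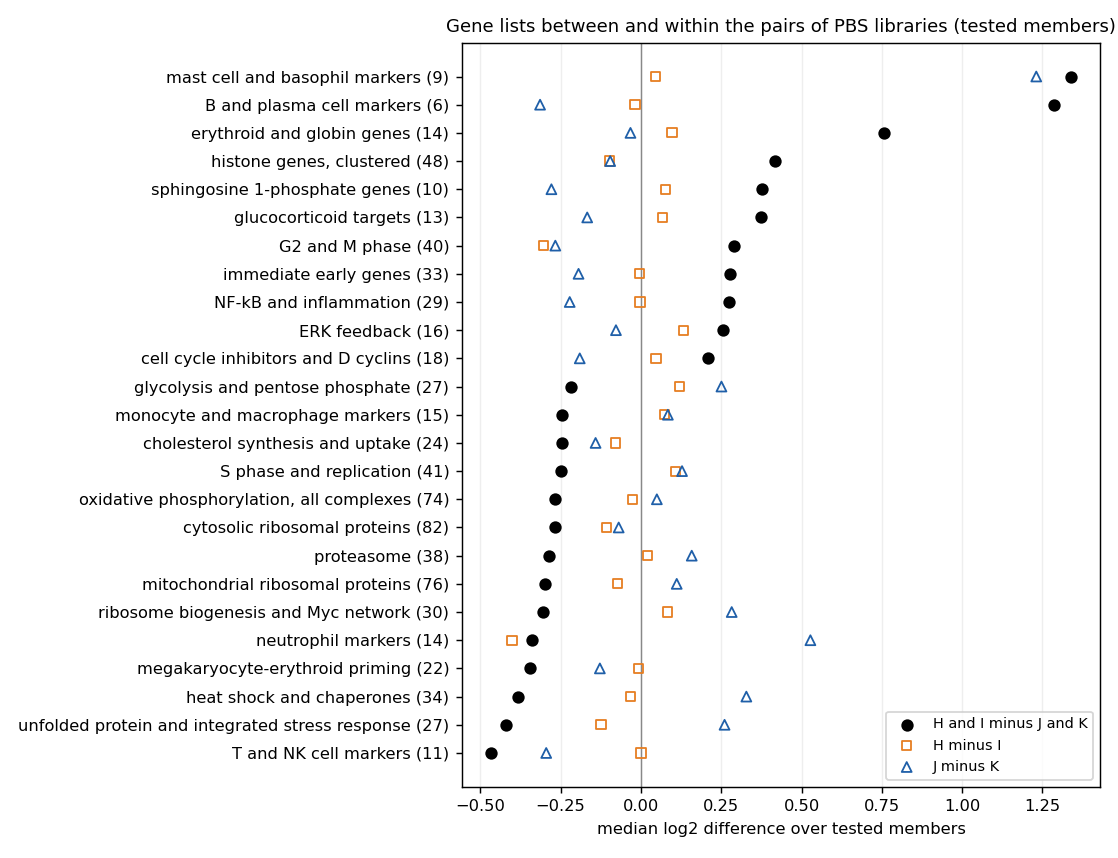
Median log2 difference over the tested members (number in brackets) of each list with a median more than 0.2 from 0 and at least 5 members. Black points are H and I minus J and K, open squares H minus I and open triangles J minus K. Mast cell markers, neutrophil markers, heat shock genes and G2 and M phase genes have a difference within a pair of a size like that between pairs. So do other lists, such as ribosome biogenesis, glycolysis, NF-kB and cell cycle inhibitors, while erythroid genes and oxidative phosphorylation do not.

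Heat shock and chaperone genes, of the cytosol and some of mitochondria, were lower in PBS H and I. Of 34 heat shock and chaperone genes, 27 lay below both libraries of J and K and 0 above, against 25.3% and 24.4% of all tested genes. The median was -0.38, and 19 had an unadjusted p under 0.05 in the lower direction, against 9.72% of all genes. In 23 of the 34, J and K stood above all other 6 libraries, the treated ones included, against 12% of all tested genes. Hspa8, the constitutive Hsp70 of the cytosol, was listed at 220.4 and 268 FPKM in H and I and at 465 and 369 in J and K (log2 difference -0.77 ± 0.15, limma, adjusted p = 0.105). Cct5, a subunit of the TRiC chaperonin, stood at 523 and 503 FPKM against 783 and 657 (-0.48 ± 0.11, adjusted p = 0.129). Hspd1, the Hsp60 of mitochondria, stood at 88.7 and 91.4 FPKM against 147 and 118 (-0.55 ± 0.13). The groups did not overlap in these 3 genes, and PBS J was the highest library in each.

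The inducible Hsp70 gene Hspa1b, named after its values were seen, was low throughout, at 0.49 and 2.43 FPKM in libraries H and I and 6.13 and 4.47 in J and K (-1.47 ± 0.41, adjusted p = 0.164). Hsp90ab1, the constitutive cytosolic Hsp90 and also named after its values were seen, stood at 1201 and 1227 FPKM against 1778 and 1420.1. PBS J and K themselves differed over this list. J lay above K in 29 of the 34 genes with a median J minus K of 0.33, where 53.2% of all tested genes lay above. H and I differed by a median of -0.03. Without PBS J the list's median between the pairs was -0.20, and without PBS K it was -0.55.

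Promoters of these genes were searched for the heat shock element core GAANNTTC, which reads the same on both strands. Among RefSeq promoters (GRCm38.p6) of 250 bases before and 50 after the start, 11 of the 26 that matched a tested member held it (42.3%), against 9.04% of 27025 symbols. Of the 20 matched members that lay lower in both libraries of H and I, 9 held it. The stretches of 120 bases before the start of Hspa1b and of Hspe1, the Hsp10 partner of Hsp60, show 1 match each, in capitals, that begins 104 and 84 bases before the start. Hspa1b lies at chr17:34959239-34959358 on the minus strand and Hspe1 at chr1:55088028-55088147 on the plus strand. A match is a description of the sequence and not of binding.
Hspa1b: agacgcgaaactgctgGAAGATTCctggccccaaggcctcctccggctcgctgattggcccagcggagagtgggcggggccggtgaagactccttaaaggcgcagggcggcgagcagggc
Hspe1: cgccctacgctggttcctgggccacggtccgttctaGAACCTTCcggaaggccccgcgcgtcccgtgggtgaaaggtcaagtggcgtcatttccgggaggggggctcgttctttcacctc

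Chaperones of the endoplasmic reticulum followed the same order. Of 27 genes of the unfolded protein and integrated stress responses, 18 lay below both J and K (66.7%, against 25.3% of all tested genes). Another 4 lay above both, and the median was -0.42. In PBS H, I, J and K, Hspa5, which encodes the reticulum Hsp70 BiP, stood at 369.8, 491, 745 and 665 FPKM (-0.72 ± 0.15, limma, adjusted p = 0.121). Sdf2l1, a partner of BiP, stood at 67.7 and 73.9 FPKM against 165 and 133 (-1.06 ± 0.22, adjusted p = 0.117). The treated libraries were with J and K for Hspa5 (609 to 727 FPKM) and between or below the pairs for Sdf2l1 (61.9 to 107). In 9 of the 27 genes (33.3%, against 12% of all tested genes) J and K stood above all other 6 libraries. Ppp1r15a, a gene of the immediate early list that directs a phosphatase to eIF2alpha, stood higher in H and I at 102 and 96.8 FPKM against 58.1 and 66.6 (0.67 ± 0.12, adjusted p = 0.0986). Ddit3, which encodes CHOP and is a member of the stress list, overlapped between the pairs (18.0, 29.0, 19.5 and 30.2 FPKM). Without PBS J the median of the list was -0.25.

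Subunits of the respiratory chain stood lower in PBS H and I across most of the 5 complexes. Of 74 tested nuclear genes of oxidative phosphorylation, 67 lay below 0. Of the 74, 56 lay below both J and K (75.7%, against 25.3% of all tested genes). Another 2 lay above both (2.7%, against 24.4%). The median was -0.27, and 41 had an unadjusted p under 0.05 in the lower direction (55.4%, against 9.72%). J and K stood above all other 6 libraries in 49 of the 74 (66.2%, against 12%). The medians were -0.26 for 36 genes of complex I (NADH dehydrogenase), -0.10 for 4 of complex II, -0.14 for 9 of complex III, -0.36 for 11 of complex IV (cytochrome oxidase) and -0.27 for 14 of complex V (ATP synthase). For complex II the median was 0.10 with quantile normalisation, and for complex III 0.05 with it and 0.03 after adjustment for transcript length, so the sign of these 2 medians changed with the setting. In complexes IV and V, 11 of 11 and 14 of 14 genes lay below 0.

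Ndufb2 of complex I stood at 244 and 262 FPKM in libraries H and I and at 389.5 and 361 in J and K (log2 difference -0.57 ± 0.10, limma, adjusted p = 0.0986). Uqcr11 of complex III stood at 521 and 545 FPKM against 792 and 726 (-0.51 ± 0.09, adjusted p = 0.1004). Cox7a2 of complex IV stood at 246 and 247 FPKM against 339 and 327 (-0.43 ± 0.08, adjusted p = 0.1004). Within pairs these genes were close, and over the list H minus I had a median of -0.02 and J minus K of 0.05. Leaving out any 1 PBS library gave medians from -0.28 to -0.24, while quantile normalisation gave -0.10 and adjustment for transcript length and GC content -0.13.

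Protein production and removal showed the same side. Of 76 mitochondrial ribosomal protein genes, 59 lay below both J and K and 2 above, with a median of -0.30, and 45 had J and K above the other 6 libraries. The 59 and the 45 are 77.6% and 59.2%, against 25.3% and 12% of all tested genes. Of 38 proteasome genes, 27 lay below both (71.1%) and 0 above, with a median of -0.29. Psmb10, a catalytic subunit of the immunoproteasome, stood at 108 and 113 FPKM in libraries H and I against 158 and 163 in J and K (-0.54 ± 0.10, limma, adjusted p = 0.1004). Of 82 cytosolic ribosomal protein genes, 50 lay below both (61%) and 4 above, with a median of -0.27. Here 17 had J and K above all other 6 libraries (20.7%, against 12% of all tested genes). Ribosomal protein genes have many processed copies in the genome, so single members are uncertain.

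The ribosome biogenesis and Myc list, which holds nucleolar factors that build ribosomes, had 23 of 30 genes below both J and K and 4 above, with a median of -0.31. Bop1, a nucleolar factor for the large subunit, stood at 59.0 and 56.3 FPKM in libraries H and I and at 103 and 79.2 in J and K (-0.64 ± 0.13, limma, adjusted p = 0.117). Myc itself stood at 274 and 256 FPKM against 335 and 308 (-0.28 ± 0.09, adjusted p = 0.206). J lay above K in 25 of the 30 genes, and the list's median was -0.19 without PBS J and -0.48 without PBS K. Translation initiation genes had a median of -0.19 over 51 genes, with 22 below both J and K.

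Some of the lists above have short transcripts, and the pairs also differed by transcript length. Length and GC content from GENCODE were available for 10108 of the 10658 tested named genes (94.8%). Over 5 equal bins of the genes from shortest to longest transcript, the median log2 difference was -0.16, -0.04, 0.02, 0.05 and 0.11. Over 5 bins by GC content from lowest to highest, it was 0.16, 0.02, -0.04, -0.07 and -0.06. The median transcript was 913 bases long in the oxidative phosphorylation list, 910 in the cytosolic ribosome, 1302 in the mitochondrial ribosome and 1586 in the proteasome, against 3057 over all genes. It was longer in the heat shock list (2450) and in the unfolded protein and integrated stress responses (2461). In translation initiation it was 2708 and in ribosome biogenesis 2739. After adjustment for both features, added after the data were seen, the medians were -0.13 for oxidative phosphorylation, -0.14 for the cytosolic ribosome, -0.21 for the mitochondrial ribosome and -0.18 for the proteasome. They were -0.38 for heat shock genes and -0.31 for ribosome biogenesis, which is where they stood before. Over all genes the adjusted median was -0.02. The part of transcript length and GC content in these differences was otherwise not tested.

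**Figure D3:**
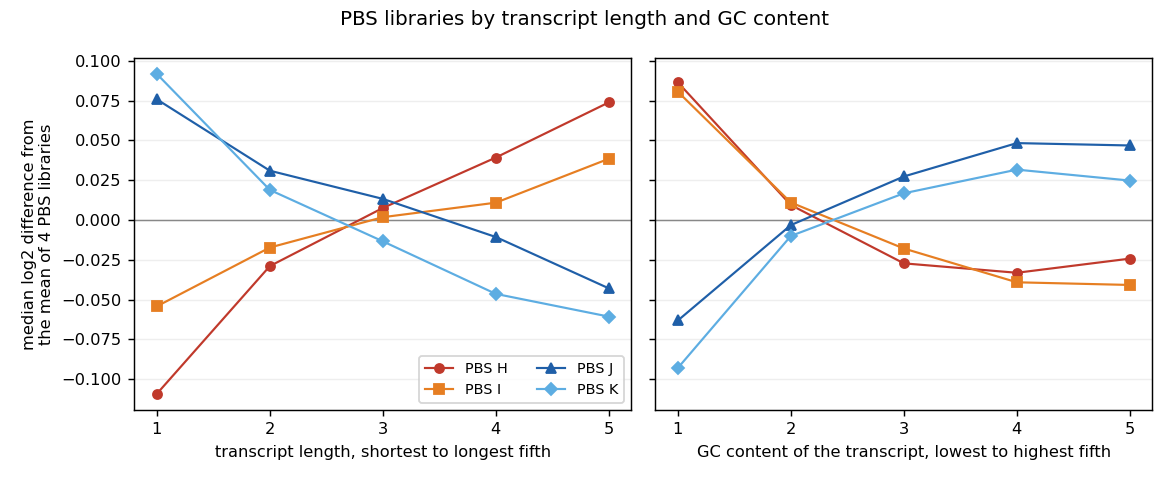
Median log2 difference of each PBS library from the mean of the 4, over 5 equal bins of 10108 named genes by transcript length (left, shortest to longest) and by GC content (right, lowest to highest). PBS H and I slope upward with length and downward with GC content, and PBS J and K slope the opposite way.

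The phases of the cell cycle lay on opposite sides. Of 41 S phase and replication genes, 26 lay below both J and K (63.4%, against 25.3% of all tested genes). Another 1 lay above both, and the median was -0.25. J lay above K in 33 of the 41 (80.5%, against 53.2% of all tested genes). The median between the pairs was -0.17 without PBS J and -0.36 without PBS K. Fen1, the flap endonuclease that finishes lagging strands, stood at 101 and 108 FPKM in libraries H and I and at 143 and 138 in J and K (-0.42 ± 0.09, limma, adjusted p = 0.123). Of 40 G2 and M phase genes, 36 lay above 0, with a median of 0.29. Above both J and K lay 18 (45%, against 24.4% of all tested genes), and 1 lay below both. Ect2, a regulator of cytokinesis, stood at 30.9 and 32.9 FPKM against 21.5 and 21.2 (0.56 ± 0.12, adjusted p = 0.117), and Ccnb2, a mitotic cyclin, at 112 and 125 against 47.1 and 77.6 (0.96 ± 0.27, adjusted p = 0.164). In 14 of the 40 genes H and I stood above all other 6 libraries, against 5.87% of all tested genes.

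Mitotic genes also varied inside each pair. H lay below I in 39 of 40 genes with a median H minus I of -0.30, where 49.8% of all tested genes lay below. J lay below K in 36 of 40 with a median J minus K of -0.27, where 46.5% of all genes lay below. The order of the libraries was therefore I highest, then H and K, then J. The median between the pairs was 0.45 without PBS H, 0.09 without PBS I and 0.15 without PBS J.

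Clustered histone genes, whose main transcripts are made in S phase and mostly lack a poly(A) tail, did not go with the replication genes. Of 48 tested, 34 lay above 0, with a median of 0.42. Above both J and K lay 19 (39.6%, against 24.4% of all tested genes), and 4 lay below both. Hist1h1c, a linker histone, stood at 88.2 and 119 FPKM in libraries H and I and at 38.5 and 49.8 in J and K (1.21 ± 0.20, limma, adjusted p = 0.0985), and Hist1h2bg at 82.9 and 73.8 against 30.7 and 32.7. Hist1h2af went the other way, at 0.77 and 0.78 FPKM against 4.07 and 4.84. In 10 of the 48 genes H and I stood above all other 6 libraries (20.8%, against 5.87% of all tested genes).

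**Figure D4:**
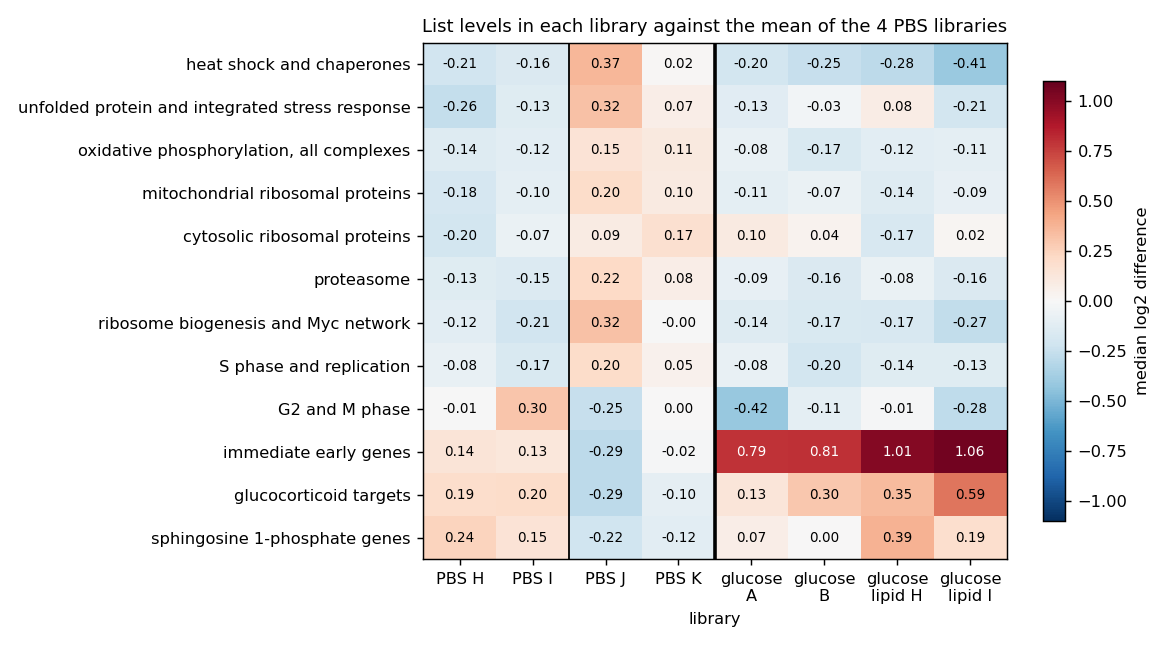
Median log2 difference of 12 lists in each library (columns) from the mean of the 4 PBS libraries, with red for higher and blue for lower. For heat shock, oxidative phosphorylation, the proteasome and ribosome biogenesis the 4 treated libraries are on the side of PBS H and I, and PBS J has the highest value (0.37, 0.15, 0.22 and 0.32). Immediate early genes are from 0.79 to 1.06 in the treated libraries.

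Immediate early genes stood higher more often in PBS H and I. Of 33 tested, 14 lay above both J and K and 2 below, with a median of 0.28, and in 13 J and K stood below all other 6 libraries, against 7.89% of all tested genes. Rgs1, a G protein regulator, stood at 296 and 393 FPKM against 123 and 229.5 (1.02 ± 0.27, limma, adjusted p = 0.162). Egr1, named after its values were seen, overlapped between the pairs, at 226 and 210.3 FPKM against 268 and 172. Plk2, a polo-like kinase of the p53 target list, stood at 14.5 and 18.1 FPKM against 5.28 and 7.66 (1.22 ± 0.22, adjusted p = 0.1004). NF-kB and inflammation genes had a median of 0.27 with 13 of 29 above both J and K (44.8%, against 24.4% of all tested genes). Genes of ERK feedback had a median of 0.26 with 6 of 16 above both (37.5%). Without PBS J the medians of these 3 lists were 0.12, 0.17 and 0.13, and without PBS K that of the NF-kB list was 0.42.

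Glucocorticoid targets had 9 of 13 members above both J and K (69.2%, against 24.4% of all tested genes) and 0 below. The median was 0.37. Tsc22d3, which encodes the glucocorticoid-induced leucine zipper, stood at 321 and 333 FPKM in libraries H and I and at 153 and 187 in J and K (0.95 ± 0.31, limma, adjusted p = 0.199). Pik3ip1, an inhibitor of PI3 kinase, stood at 84.1 and 76.4 FPKM against 39.6 and 52.96. Fkbp5, another target of the receptor and named after its values were seen, overlapped (63.0, 68.3, 87.8 and 65.9 FPKM). Without PBS J the median of the list was 0.21.

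Growth arrest and insulin signalling held single genes that separated the pairs. Cell cycle inhibitors and D cyclins had a median of 0.21 over 18 genes, 0.07 without PBS J and 0.32 without PBS K. Ccng2, a cyclin of arrested cells and a FoxO target, stood at 32.6 and 27.0 FPKM against 9.61 and 18.1 (1.11 ± 0.25, limma, adjusted p = 0.135). Irs2, the insulin receptor substrate, stood at 5.29 and 5.36 FPKM against 1.82 and 1.92 (1.14 ± 0.21, adjusted p = 0.105). The insulin, IGF and FoxO list as a whole had a median of 0.08, with 10 of 23 genes above both J and K and 3 below. From other lists, Phc2, a Polycomb subunit, stood at 20.0 and 11.6 FPKM against 4.31 and 3.695 (1.71 ± 0.29, adjusted p = 0.0985). Jak2, the kinase of cytokine receptors, stood at 22.7 and 16.6 FPKM against 3.11 and 9.80. The DNA methylation and Polycomb list had a median of 0.13, with 10 of 26 genes above both J and K (38.5%) and 1 below. The JAK-STAT and SOCS list had a median of 0.06. Above both lay 6 of its 26 genes (23.1%, against 24.4% of all tested genes) and below both 2.

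Sphingosine 1-phosphate guides the exit of cells from marrow into blood. Of 10 tested genes of this pathway, 7 lay above both J and K and 0 below, with a median of 0.38, a list that includes Spns2. Among its receptors, S1pr1 stood at 15.6 and 16.6 FPKM in libraries H and I against 7.84 and 11.01 in J and K (0.73 ± 0.17, limma, adjusted p = 0.135). S1pr4 stood at 29.96 and 28.0 FPKM against 22.7 and 19.8 (0.43 ± 0.12, adjusted p = 0.164). The treated libraries had 23.4 to 25.9 FPKM of S1pr1, above all 4 PBS libraries. In Spns2 they were nearer to J and K.

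Mast cell and basophil markers had 8 of 9 tested members above both J and K (88.9%, against 24.4% of all tested genes). Their median was 1.34. Cpa3, the mast cell carboxypeptidase, stood at 96.2, 93.2, 39.8 and 11.9 FPKM in PBS H, I, J and K (2.06 ± 0.53, limma, adjusted p = 0.156). Tpsb2, a tryptase, stood at 45.6, 43.4, 16.6 and 1.19 FPKM, and Cma1, a chymase, at 35.3, 42.5, 15.1 and 1.03. PBS J lay between the tagged pair and PBS K in each, and above K in 9 of 9 members, with a median J minus K of 1.23. The summed level of the 15 listed markers was 223 and 229 FPKM in H and I, 99.2 in J and 25.9 in K, and 2 of the 15 were at 0 in all 4. The median between pairs was 0.73 without PBS K. T and NK cell markers had a median of -0.47, with 9 of 11 below 0 and 4 below both J and K. In the opposite direction Gzmb, a granzyme on that list, stood at 10.4, 13.6, 4.11 and 0.12 FPKM, while Cd3e and Cd3g stayed under 1 FPKM in all 4.

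Of 14 erythroid and globin genes, 11 lay above both J and K (78.6%, against 24.4% of all tested genes) and 0 below. The median was 0.76, and in 9 J and K stood below all other 6 libraries (64.3%, against 7.89%). Alas2, the first enzyme of haem synthesis in red cells, stood at 4.401 and 4.66 FPKM in libraries H and I against 0.35 and 0.43 in J and K (1.99 ± 0.42, limma, adjusted p = 0.117). The summed level of this list was 894 and 858 FPKM against 633 and 366. In the other direction, the platelet genes Pf4 and Gp9 of the megakaryocyte and erythroid priming list were lower in H and I. Pf4 stood at 46.6 and 55.2 FPKM against 70.9 and 92.7 (-0.67 ± 0.22, adjusted p = 0.205), and this list had a median of -0.34, and of -0.19 without PBS I or PBS K. The list was mixed. Of its 22 tested genes, 8 lay below both J and K (36.4%, against 25.3% of all tested genes). Another 6 lay above both (27.3%, against 24.4%).

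B and plasma cell markers had a median of 1.29 with 4 of 6 tested members above both J and K, while Pax5 was listed at 0 in all 4 libraries and the summed level was 49.5 and 64.0 FPKM against 44.8 and 44.0. Igj, the joining chain of antibodies, stood at 4.56 and 6.29 FPKM against 0 and 0.32. Cebpb, a myeloid transcription factor, stood at 30.8 and 20.9 FPKM against 5.46 and 4.84 (2.11 ± 0.45, limma, adjusted p = 0.121), while the granulocyte and monocyte priming list, to which it belongs, had a median of -0.02. Neutrophil markers had a median of -0.34, with 0 of 14 at an unadjusted p under 0.05 in either direction. PBS J had the highest summed level of these, 608 FPKM against 317, 395 and 439 in H, I and K. The part of such cells in the differences between the pairs was not tested.

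**Figure D5:**
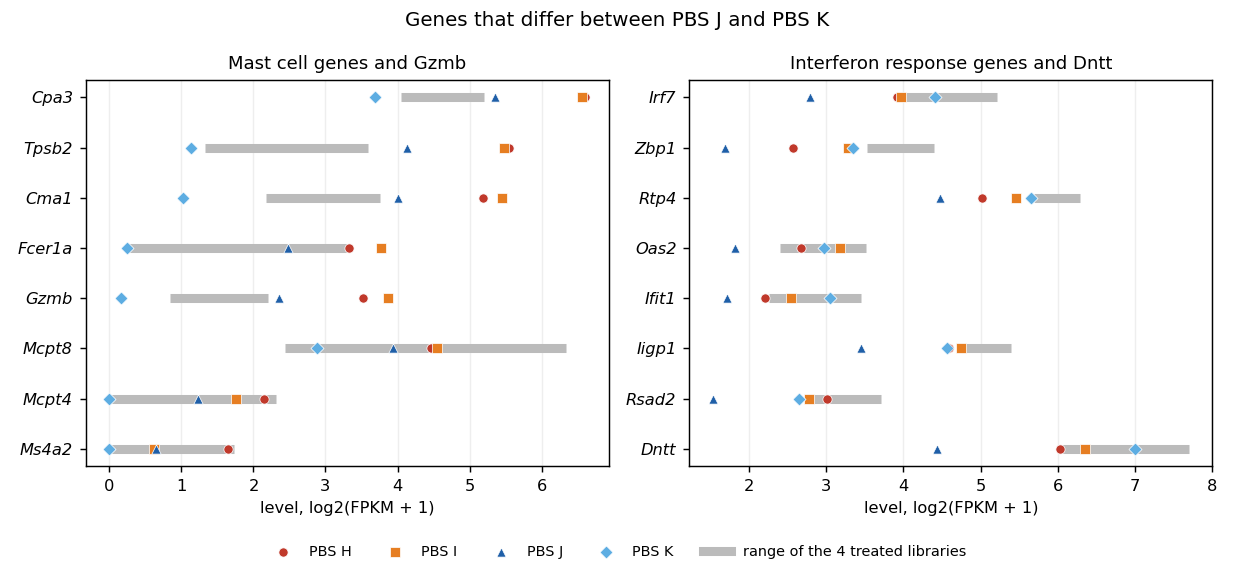
Level of mast cell genes with Gzmb (left) and of interferon response genes with Dntt (right), in log2(FPKM + 1), with 1 marker per PBS library and a grey bar for the range of the 4 treated libraries. PBS K is lowest in all 8 genes on the left, and PBS J is lowest in all 8 on the right. The genes were chosen as ones that differ between J and K, so these counts were largely set by the choice.

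Some programmes varied more inside a pair than between pairs. Interferon response genes had a median of only 0.12 between the pairs. Above both J and K lay 12 of 54 (22.2%) and below both 5 (9.26%). These shares are no larger than the 24.4% and 25.3% of all tested genes. Between PBS J and K, however, 52 of 54 lay lower in J, with a median J minus K of -0.63 and a median absolute difference of 0.63, against 0.21 over all genes. Between H and I, 39 of 54 lay lower in H, with a median of -0.16. The genes given here were named after their values were seen. Irf7, the transcription factor that amplifies interferon responses, stood at 14.1, 14.7, 5.90 and 20.2 FPKM in PBS H, I, J and K. Ifit1, which binds foreign RNA caps, stood at 3.62, 4.85, 2.29 and 7.25 FPKM, and Rsad2, the antiviral enzyme viperin, at 7.09, 5.86, 1.89 and 5.26. PBS J was the lowest library in each of the 3 and PBS K the highest in Irf7 and Ifit1. The median between the pairs was -0.16 without PBS J and 0.48 without PBS K, so its sign rested on which library was present.

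The interferon element searched was GAAA, any 2 bases and GAAA again, on either strand, in the same promoter windows. It was held by 24 of the 38 promoters that matched a tested member (63.2%), against 3.99% of 27025 symbols. All 9 matched members that lay higher in both libraries of H and I held it, and 3 of the 4 that lay lower. The stretches of 120 bases before the start of Ifit1 (chr19:34640769-34640888, plus strand) and Rsad2 (chr12:26456453-26456572, minus strand) show the matches in capitals on the opposite strand. They begin 104 and 85 bases before the start in Ifit1 and 120 bases before it in Rsad2.
Ifit1: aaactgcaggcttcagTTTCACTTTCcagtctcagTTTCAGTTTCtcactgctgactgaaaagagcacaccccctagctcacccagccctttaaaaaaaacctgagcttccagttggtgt
Rsad2: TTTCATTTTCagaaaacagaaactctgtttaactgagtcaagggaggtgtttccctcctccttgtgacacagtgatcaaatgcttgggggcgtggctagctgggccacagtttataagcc

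Lymphoid priming genes behaved like interferon genes. Their median was 0.18 between the pairs and -0.34 for J minus K, and 19 of 21 lay lower in J. Without PBS J the median between the pairs was -0.05. Dntt, the terminal transferase of lymphoid progenitors and named after its values were seen, stood at 64.3, 80.9, 20.7 and 127 FPKM in PBS H, I, J and K. Among the largest single differences within pairs was a gene with a close copy. Amd1, which encodes an enzyme of polyamine synthesis, was listed at 0.051 and 14.3 FPKM in H and I and at 15.3 and 0.051 in J and K. Its copy Amd2 stood at 19.9 and 4.86 FPKM and at 7.90 and 21.6, high where Amd1 was low. Elane, the neutrophil elastase, stood at 12.5, 2.02, 9.51 and 0 FPKM.

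Other programmes lay near 0 between the pairs. The medians were -0.04 for 26 genes of fatty acid oxidation, 0.04 for 12 of fatty acid synthesis, -0.01 for 13 of the pyruvate dehydrogenase group and -0.02 for 21 of stem cell ageing. They were 0.03 for 40 genes of autophagy and lysosomes, 0.05 for 18 of hypoxia, and 0.05 for 22 of the circadian clock (-0.07 with quantile normalisation). Long-term stem cell identity had a median of 0.14 over 36 genes, 0.06 without PBS J and 0.24 without PBS K. Of these, 26 lay above 0 (72.2%), and 13 lay above both J and K (36.1%) and 4 below both. Mecom, a stem cell transcription factor named after its values were seen, stood at 26.9, 22.997, 23.8 and 25.5 FPKM in PBS H, I, J and K. Cholesterol synthesis genes were lower in H and I, with 15 of 24 below both J and K (62.5%, against 25.3% of all tested genes). Their median was -0.25, which was -0.38 without PBS J, -0.17 without PBS K and -0.16 with small RNA genes removed and libraries rescaled. In 10 of the 24 H and I stood below all other 6 libraries, against 5.93% of all tested genes. The treated libraries stood 0.17 to 0.34 above the mean of the 4 PBS libraries over this list, so the 10 add little to the 15. Glycolysis and pentose phosphate genes had a median of -0.22, which was -0.07 without PBS I, -0.12 without PBS J and -0.38 without PBS K. Ldha, lactate dehydrogenase, stood at 813 and 733 FPKM against 1298 and 974 (-0.54 ± 0.15, limma, adjusted p = 0.165).

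The treated libraries carry the same tag in the glucose with lipid group and none in the glucose group, so tag and lipid cannot be told apart there. Across the 10658 named genes, the Pearson correlation of the PBS difference with the difference of glucose with lipid minus glucose was -0.01, and 48.4% of genes had the same sign in both. Among the 1890 named genes with an unadjusted p under 0.05 between the PBS pairs, 45.6% had the same sign. Of the 6 genes called between the PBS pairs, 2 had the same sign, the globin genes, which were higher in the tagged libraries there too. Beta-s stood at 47.6 and 62.5 FPKM after glucose and at 945 and 515 after glucose with lipid, and Hba-a1 at 48.6 and 65.0 against 374 and 668 (limma, adjusted p = 0.0172 and 0.0178 for this difference). Over the erythroid and globin list this difference had a median of 2.54. The list's summed level was 395 and 431 FPKM after glucose and 3115 and 1795 after glucose with lipid. The library at 3115 is the one with the high neutrophil markers. Spns2 went the other way, at 28.4 and 37.4 FPKM after glucose and 23.2 and 26.2 after glucose with lipid. Hist1h2bc overlapped, at 107 and 77.5 FPKM against 82.9 and 87.4. For transcript length, the 5 bins of the treated difference ran from 0.01 to -0.03, and for GC content from -0.11 to 0.08, opposite in direction to the PBS pairs. No other list is described for that difference, because it holds a treatment.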

How the data were processed

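RNA-seq values of 8 libraries of sorted LSK cells were used. The deposited values are FPKM, 1 per gene symbol and library, with no log. No header names the unit, which was inferred from the values and the name Cuffnorm. Per the submitters' processing notes, the authors used Cuffnorm 2.2.1, TopHat2 2.0.13, SAMtools 1.0 and Bowtie2 2.2.3 with mm10. For annotation and library scaling nothing is given in the sources used, and no counts were used, so no counting intervals are given.

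Values were transformed to log2(FPKM + 1), so differences of low genes are understated. Genes at 1 FPKM or more in 2 or more of 8 libraries were fitted in limma 3.58.1 (R 4.3.3) with a mean-variance trend and 4 groups of 2 (4 residual and 3.73 prior degrees of freedom). P-values were 2-sided, adjusted by Benjamini-Hochberg at 0.05 over 11931 genes. The text names the 12 genes per direction with the largest difference among those that passed, filled by smallest p, with a mean of at least 3 FPKM and pairs apart. It also names microRNAs that passed, up to 4 members per list by absolute t, and the 6 largest differences within each pair; other names are marked. Not all are printed. Predicted genes and small RNAs other than these were counted only. The 58 lists (1570 entries, 1428 of them tested), the comparison and the rules were chosen with earlier results of these data known. No set was tested. Transcript length and GC content came from GENCODE vM21, positions and sequences from RefSeq GRCm38.p6. The model was tested on simulated data. Tables and plots used matplotlib 3.10.9, pandas 2.3.3, numpy 2.4.6 and Python 3.11.15.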

Additional observations from a re-analysis of the deposited data

Results flagged for a closer look

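In 2 microRNA genes the difference between the PBS pairs differed from the difference between the tagged and untagged treated libraries, by an interaction term in limma. The interaction was -8.87 on the log2(FPKM + 1) scale for Mir3061 and 10.67 for Mir3112. Both genes are listed at 0 in all 4 treated libraries and in 1 PBS pair, so the interaction only restates the PBS difference. Each passed the filter on level through the pair where it is above 0 and had to differ. The values depend on the pseudocount, are no bound on a fold and support no statement about the tag. No messenger RNA gene passed in this interaction.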

How the results depend on the processing

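No paired analysis was possible because the PBS pairs carry replicate numbers 1 and 2 against 3 and 4 and share none. All counts here are from limma at an adjusted p under 0.05, where 5 genes were called higher and 1 lower in PBS H and I. The counts were 5 higher and 2 lower with a pseudocount of 0.1, 6 and 2 with a mean of at least 5 FPKM, and 1 and 1 with no filter on level (16579 genes). They were 13 and 4 with the 4 PBS libraries alone, 13 and 9 with a robust prior, 2 and 2 without the trend, and 22 and 3 with small RNA genes removed and libraries rescaled. Median centring and quantile normalisation each gave 5 and 1. Leaving out 1 library gave 2 to 12 higher and 1 to 3 lower. A library left alone in its group was assumed to vary like the other groups. The higher count was 11 and 12 without replicates 1 and 2 of glucose with lipid, 3 without PBS H and 2 without PBS I. The lower count was 3 without either library of glucose with lipid, and 2 without either glucose library or PBS H, J or K. Among the 10108 genes with a transcript length and GC content, 3 were called higher and 0 lower, unadjusted or adjusted for length, GC content or both. In limma, 1025, 857, 952 and 800 genes there were lower at an unadjusted p under 0.05. The cause of these changes was not tested. The share of higher genes among those at an unadjusted p under 0.05 was 43.6%, and 31.4% with median centring, 52.1% with quantile normalisation and 77.3% with rescaling (1311 higher and 384 lower), which moved the median of all genes by 0.10. All 526 values of 26 named genes over 21 alternatives (17 planned and 4 added after the data were seen) kept their direction. In all these genes the pairs are apart, mostly by the rule that chose them, so leaving out 1 library could not turn a direction. The fits without the trend, with a robust prior or without a treated library return the same difference. The kept direction was thus largely set in advance and is no test of firmness. The 25 lists with a median more than 0.2 from 0, with the respiratory complexes taken as 1 list, kept their sign in all 21. These lists were taken for a median far from 0 in the main fit, so this too was partly set by the choice. With rescaling the medians of heat shock and oxidative phosphorylation were -0.28 and -0.16, and with quantile normalisation -0.22 and -0.10. Depth is known only as a ratio, so values near 1 FPKM and small RNA genes carry a counting error that could not be given.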
